A study of Homo sapiens and Mus musculus with 74 samples.

Results

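The 42 protein-coding genes that flank Rpl41 on mouse chromosome 10 were compared between Rpl41 knockout (KO) and wild-type (WT) mice. The rule that chose them uses position and no measured value, and takes the coding genes of the GENCODE M21 annotation (build GRCm38) with a gene start from 128100000 to 129000000, leaving out Rpl41, Rps26 and olfactory receptor genes. Each gene was read from its transcript with the longest protein. All 42 genes were in the counts table, which covers 21908 coding genes in all. Rpl41 lies at chr10:128548114-128549305 on the minus strand, with 22 of the genes at lower and 20 at higher coordinates. The gap between gene body and Rpl41 was under 100 kb for 8 genes, 100 to 250 kb for 16 and over 250 kb for 18.

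The KO animals were made by electroporating Cas9 ribonucleoproteins into zygotes of the C57BL/6J strain, and in the homozygous Rpl41-/- animals used here the whole coding sequence of Rpl41 is deleted. The study took kidneys and brains from male mice aged 10 weeks. KO and WT each had 3 libraries of RNA-seq and of Ribo-seq in both tissues and of disome-seq in kidney, 30 libraries in all. RNA-seq measured poly(A)-selected mRNA, Ribo-seq the fragments protected by 1 ribosome, and disome-seq the longer fragments protected by a pair of adjacent ribosomes. The study calls the libraries biological replicates, but the labels number them without naming animals, and p-values measure the spread between libraries.

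Rpl41 encodes a very small, highly basic ribosomal protein at the interface of the ribosomal subunits. A deletion removes both a protein and a piece of chromosome, and the genes around it lose a neighbor that is transcribed heavily in most tissues. The ends of the deletion were not read here, so whether it reaches a promoter of a flanking gene was not tested. Reading the flanking genes by distance shows whether their mRNA or footprints differ near the deleted locus. The flanking genes have no shared function. Among them are Cs, the mitochondrial citrate synthase, Erbb3, a receptor of the EGF receptor family, Cdk2, a cyclin-dependent kinase, Myl6, a myosin light chain, and Cd63, a tetraspanin of late endosomes.

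The deletion was visible in every library of the table. The Rpl41 transcript with the longest protein had 3695 to 7502 counts in WT kidney RNA-seq and 3 to 8 in KO, and 8981 to 12199 in WT brain RNA-seq and 6 to 12 in KO. RNA-seq libraries totalled 44998381 to 55077048 counts (kidney) and 84433838 to 123745890 (brain), Ribo-seq libraries 11036643 to 42452425 (kidney) and 9498663 to 35881929 (brain), and disome-seq libraries 1187636 to 3018963. Defining markers of the labelled tissue were present, with summed kidney markers at 12630 CPM or more in kidney RNA-seq and at 0.694 CPM or less in brain. KO replicates 2 and 3 of kidney RNA-seq stood apart from the other kidney RNA-seq libraries, with 83287 and 86071 transcripts detected against 91222 to 93091. Without KO replicate 1, the share of transcripts called in kidney RNA-seq moved from 0.00992% to 17.0%. By edgeR, counts of flanking genes from this comparison alone are given with and without that library. The count of genes above WT in both tissues is given only with it. Summed kidney markers were 12630 to 15060 CPM in WT and 16260 to 20330 CPM in KO kidney RNA-seq, and the part of this difference in the values below was not tested. In brain RNA-seq, summed blood markers were 700.5 to 2410 CPM in WT and 379.8 to 795.4 CPM in KO, and summed pituitary markers 0.848 to 666.6 CPM and 1.11 to 5.95 CPM, and their part was not tested either. In bulk tissue, fewer cells of a type and less RNA per cell cannot be told apart.

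The flanking genes spanned a wide range of levels, given here for WT RNA-seq as CPM (counts scaled to library size) per kilobase of transcript. In kidney the highest were Cd63 at 226, Myl6 at 165 and Mettl7b, a methyltransferase-like protein of lipid droplets, at 63.2. In brain they were Myl6 at 202, Cd63 at 28.7 and Cs at 23.0. Several genes had nearly all their counts in 1 tissue. Mettl7b had 3836, 4113 and 3907 counts in the WT kidney libraries and 10, 3 and 5 in the WT brain libraries. Gls2, a glutaminase, had 6, 3 and 9 counts in WT kidney and 972, 880 and 845 in WT brain. Slc39a5, a zinc transporter, had 563, 674 and 661 counts in WT kidney and 52, 43 and 38 in WT brain. Mip, a water channel of the eye lens, and the apolipoprotein genes Apon and Apof stayed at 27 counts or fewer in every RNA-seq library of both tissues.

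The test asked, gene by gene, whether KO differed from WT (edgeR, quasi-likelihood, p-values adjusted over all transcripts tested). In kidney RNA-seq 37 of the 42 genes had enough counts to be tested and 0 passed an adjusted p of 0.05, where 0.00992% of all transcripts did. By the unadjusted p of 0.05, 5 were higher and 2 lower in KO, a share to be read against 14.2% of all coding genes tested. In brain RNA-seq 39 genes were tested and 0 passed, where 0.0134% of all transcripts did, and 1 gene was past the unadjusted 0.05, where 4.97% of coding genes were. DESeq2 also called 0 flanking genes in either RNA comparison. Without KO replicate 1 of kidney RNA-seq, 3 of 37 genes were called, all higher in KO (Coq10a, Zc3h10 and Bloc1s1), a smaller share than the 17.0% of all transcripts called in that fit. By the unadjusted p, 6 were then higher and 2 lower, read against 26.1% of coding genes. The median log2 fold change (KO over WT) of the genes tested was 0.17 in kidney, beside 0.10 over all coding genes tested, and 0.15 in brain, beside 0.09.

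**Figure D1:**
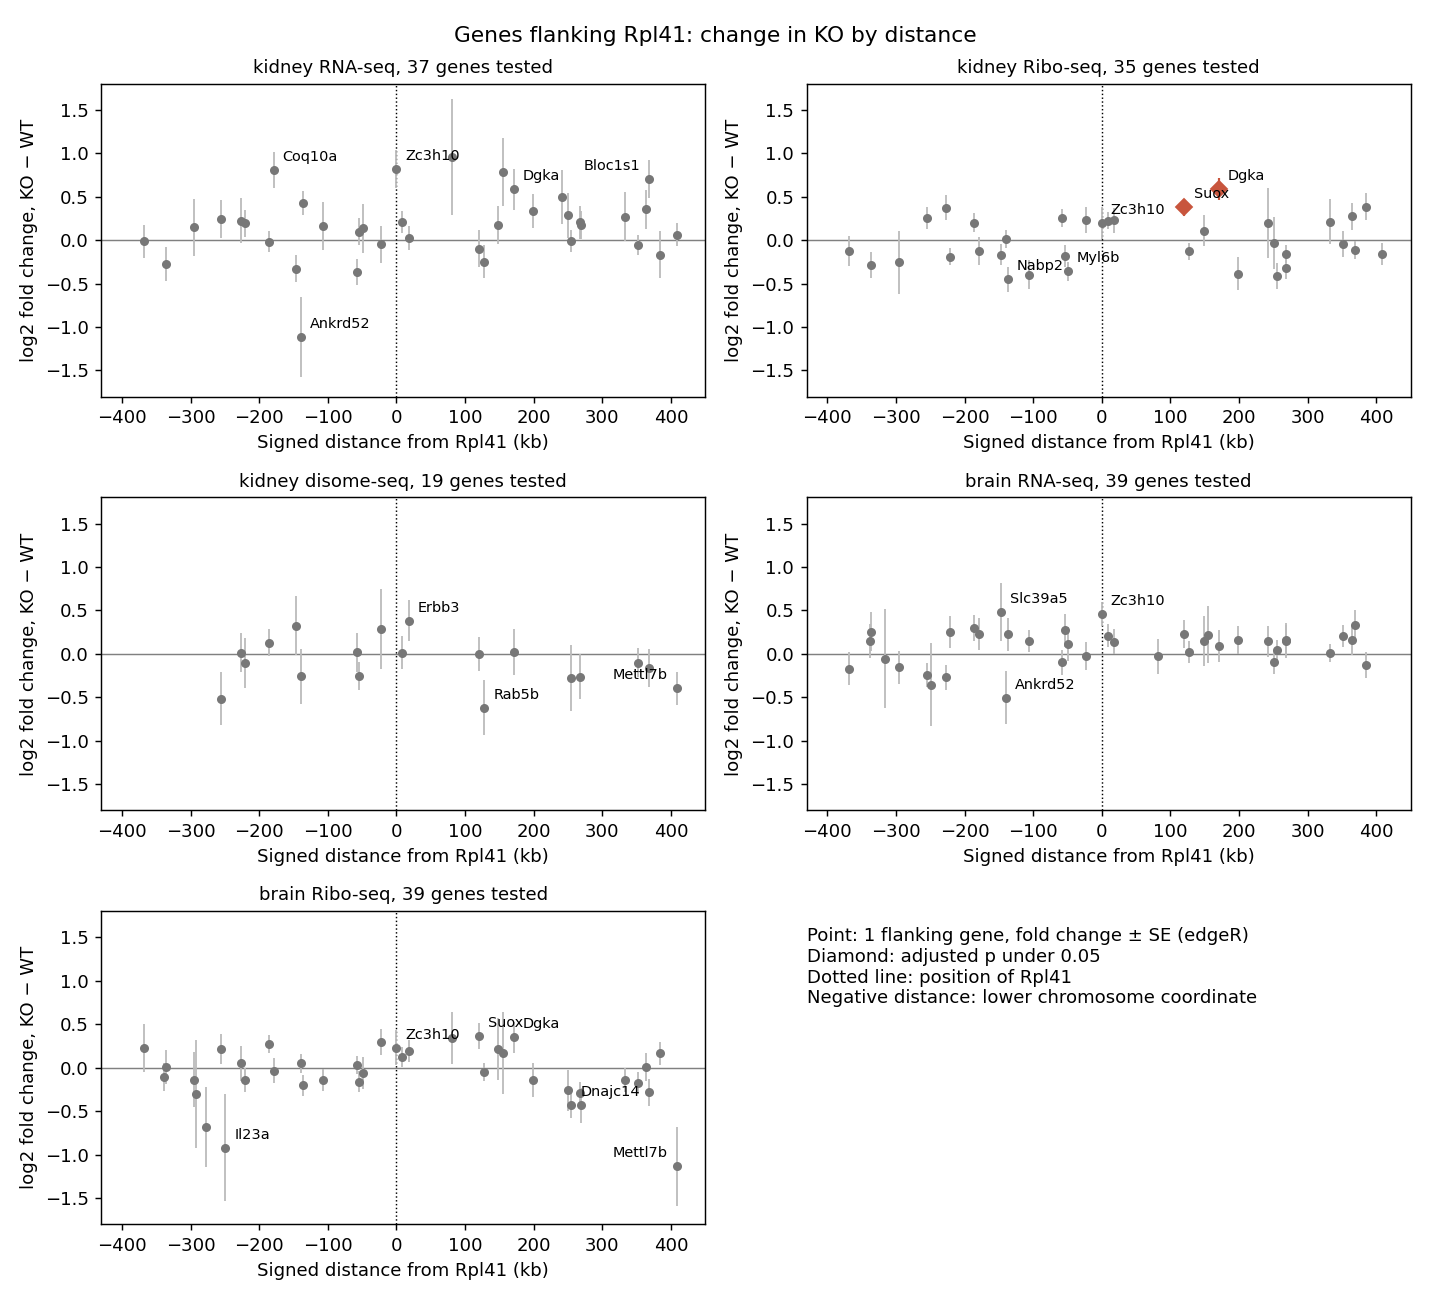
Log2 fold change (KO over WT, ± SE, edgeR) of each flanking gene tested, against its signed distance in kb from Rpl41 (dotted line), for the 5 comparisons. Most genes lie within 0.5 of 0 at any distance, and the only genes past an adjusted p of 0.05 are Suox and Dgka in kidney Ribo-seq (diamonds).

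Zc3h10, which encodes a zinc finger protein of the CCCH type, is the nearest gene to Rpl41. It lies at chr10:128541963-128547774 on the same strand, and its annotated start is separated from the 3′ end of Rpl41 by 339 bases. Those bases were 55.8% G or C and held 22 CG dinucleotides. The sequence just before the Zc3h10 start, which no annotated exon overlaps, is printed here with those of Suox and Dgka, the genes called in kidney Ribo-seq. Each was read from GRCm38.p6 on the minus strand and ends at the base before the annotated gene start. For Zc3h10 and Suox this is also the start of the transcript used. For Dgka it is the start of another transcript, and the coding transcript used for the Dgka values starts downstream of it. The printed Dgka window is thus not the sequence just before the transcript measured. Capitals mark matches on either strand to the CCAAT box, to the TATA box motif TATAAA or to the GC box motif GGGCGG, the motifs searched.
Zc3h10, chr10:128547775-128548024: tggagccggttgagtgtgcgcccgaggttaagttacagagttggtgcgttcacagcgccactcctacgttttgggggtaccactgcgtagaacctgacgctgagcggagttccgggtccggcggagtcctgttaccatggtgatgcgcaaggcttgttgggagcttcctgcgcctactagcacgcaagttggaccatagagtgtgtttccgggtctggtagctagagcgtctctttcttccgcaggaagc
Suox, chr10:128674074-128674323: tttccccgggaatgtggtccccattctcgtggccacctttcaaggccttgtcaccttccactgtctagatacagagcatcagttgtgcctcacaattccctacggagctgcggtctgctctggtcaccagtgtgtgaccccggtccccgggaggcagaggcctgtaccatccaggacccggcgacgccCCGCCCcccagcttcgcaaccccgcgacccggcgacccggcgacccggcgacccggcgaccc
Dgka, chr10:128744856-128745105: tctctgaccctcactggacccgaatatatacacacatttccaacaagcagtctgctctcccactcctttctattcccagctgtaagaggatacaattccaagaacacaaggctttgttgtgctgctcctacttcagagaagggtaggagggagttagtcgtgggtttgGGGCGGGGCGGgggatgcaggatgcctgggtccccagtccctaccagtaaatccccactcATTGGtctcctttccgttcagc

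The Zc3h10 window held none of the motifs, the Suox window held 1 GGGCGG, and the Dgka window held 1 CCAAT and 2 GGGCGG that share a base. Over the same 250 bases, 36.0% of 21895 coding genes held CCAAT, 11.5% TATAAA and 39.1% GGGCGG. Among the 42 flanking genes the numbers were 19 with CCAAT, 3 with TATAAA and 21 with GGGCGG. The Zc3h10 window held 18 CG dinucleotides, the Suox window 21 and the Dgka window 5, beside a median of 12 among the flanking genes and 8 among all coding genes. These matches describe letters in a window and say nothing of binding.

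Zc3h10 mRNA had 217, 289 and 182 counts in the WT kidney libraries and 400, 382 and 310 in the KO kidney libraries. After TMM scaling, this was 4.49 ± 0.924 CPM (SD, n = 3) in WT and 7.91 ± 1.01 CPM in KO, with no overlap between the groups. The log2 fold change was 0.82 (SE 0.22), with an unadjusted p of 0.00513 and an adjusted p of 0.292 by edgeR. Only 0.809% of coding genes had a lower p in kidney RNA-seq, Coq10a being the only flanking gene among them.

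In brain the WT libraries had 409, 405 and 403 Zc3h10 counts and the KO libraries 676, 482 and 511. After scaling, all KO libraries again lay above all WT libraries, with 4.30 ± 0.208 CPM (SD, n = 3) in WT and 5.92 ± 0.704 CPM in KO. The log2 fold change was 0.46 (SE 0.14), with an unadjusted p of 0.0112 and an adjusted p of 0.898 by edgeR, the lowest p of the 39 flanking genes tested. Zc3h10 was the only 1 of 36 flanking genes tested in both tissues with KO above WT in each, a pattern held by 1.42% of coding genes. With the further condition of an unadjusted p under 0.05 in each tissue, the share of coding genes was 0.236%. The difference between the tissues, 0.31 (SE 0.27), had an adjusted p of 0.697 in the interaction test, and was 0.48 without WT replicate 2 of kidney.

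Footprints on Zc3h10 did not separate the genotypes. Kidney Ribo-seq gave 83, 32 and 44 counts in WT and 37, 125 and 130 in KO, and brain Ribo-seq 58, 21 and 65 in WT and 69, 94 and 67 in KO. The log2 fold changes after scaling were 0.20 (SE 0.18) in kidney and 0.23 (SE 0.20) in brain, and the scaled KO and WT values overlapped in both tissues. In kidney the value was 0.06 without WT replicate 2 and 0.30 without KO replicate 2, and in brain 0.08 without KO replicate 1 and 0.38 without KO replicate 2. Translation efficiency, the change in footprints beyond the change in mRNA, was -0.59 (SE 0.31) in kidney and -0.18 (SE 0.25) in brain, with adjusted p of 0.317 and 0.930 by edgeR. Disome counts were 7 or fewer in every library and Zc3h10 was not tested there.

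**Figure D2:**
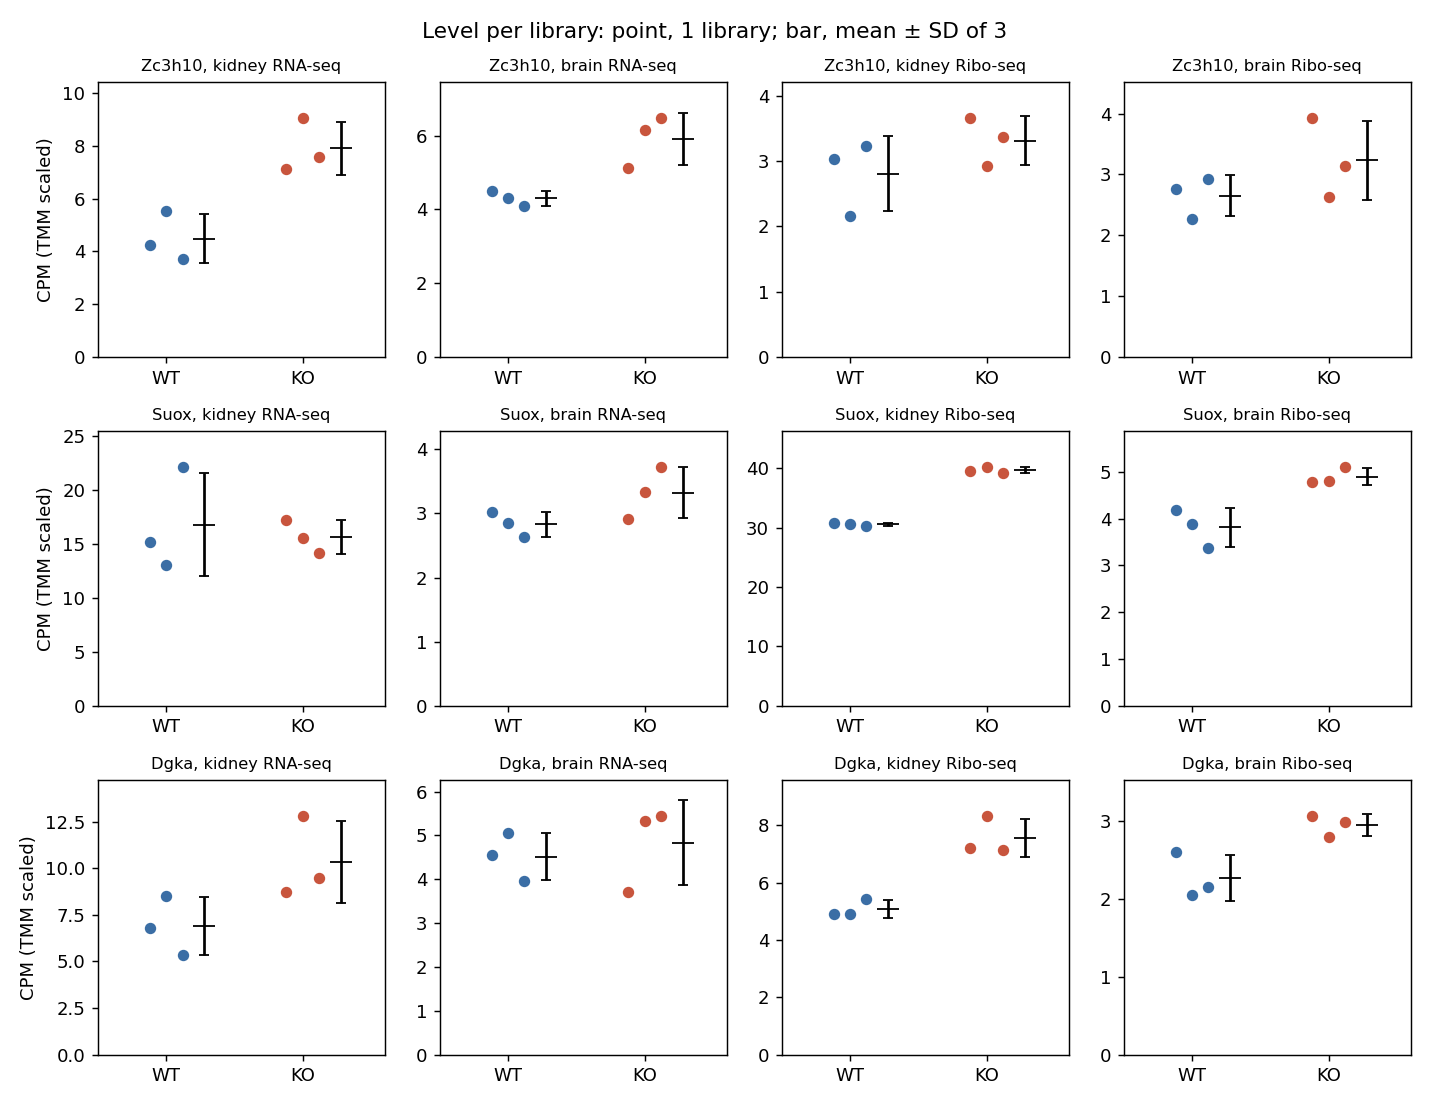
Scaled CPM of Zc3h10, Suox and Dgka in RNA-seq and Ribo-seq of kidney and brain, 1 point per library, with the mean ± SD of 3 libraries beside each group. Zc3h10 separates KO from WT in RNA-seq of both tissues, and Suox and Dgka separate them in Ribo-seq of both tissues.

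The Zc3h10 values rest on 1 of its 4 transcripts. The long transcript of 3721 bases, which encodes 435 residues and is the one given above, was the only one with KO above WT in kidney. The transcripts of 757, 992 and 565 bases, which stop upstream of the 3′ end of the long one, had log2 fold changes of -0.30 (SE 0.45), -0.47 (SE 0.66) and 0.25 (SE 0.63) in kidney. In brain they were -0.01, -0.12 and -0.38. These shorter transcripts had 4 to 54 counts a library in kidney RNA-seq, and counts of transcripts that share exons are not independent.

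A noncoding transcript of Gm29585, on the opposite strand, overlaps 13.7% of the long Zc3h10 transcript. It had 81, 109 and 60 counts in WT kidney and 168, 154 and 151 in KO, and 145, 146 and 136 in WT brain and 244, 161 and 164 in KO. Its log2 fold changes were 1.08 (SE 0.29) in kidney and 0.40 (SE 0.17) in brain, in the same direction as the long transcript. The RNA-seq kit keeps the strand, but whether the counting used it is not given in the sources used here. Without strand, reads from the shared bases count for both, so the Gm29585 values may hold Zc3h10 reads and the reverse. Neither part was tested.

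**Figure D3:**
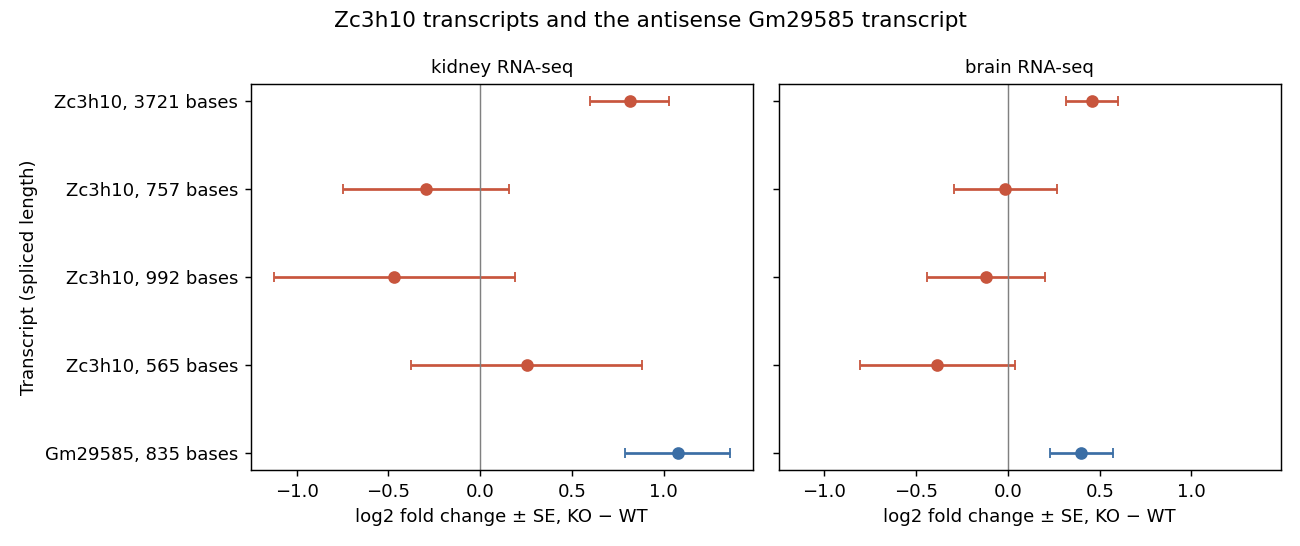
Log2 fold change (KO over WT, ± SE) of the 4 Zc3h10 transcripts (red) and of the antisense Gm29585 transcript (blue) in kidney and brain RNA-seq, named by spliced length in bases. The long Zc3h10 transcript and Gm29585, which share exon bases, are above 0 in both tissues, while the SE bars of the shorter Zc3h10 transcripts cross 0.

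On the other side of the deletion the nearest gene is Pa2g4, a growth regulator that binds RNA and pre-ribosomes, with a gap of 8.5 kb. Its mRNA counts were 1216, 1173 and 1059 in WT kidney and 1429, 1177 and 1018 in KO kidney, with a log2 fold change of 0.21 (SE 0.13) after scaling. In brain the counts were 1945, 1969 and 1776 in WT and 2663, 1918 and 1986 in KO, with a log2 fold change of 0.21 (SE 0.13), or 0.14 without WT replicate 3. The scaled KO values lay above WT in kidney and overlapped in brain, and the adjusted p was 0.384 and 0.898 by edgeR. Kidney footprints gave 0.22 (SE 0.10), with KO above WT and an adjusted p of 0.185.

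The other genes within 100 kb are Erbb3, Ikzf4, a zinc finger transcription factor of lymphocytes, Esyt1, which tethers the endoplasmic reticulum to the plasma membrane, the myosin light chains Myl6 and Myl6b, and Smarcc2, a subunit of the SWI/SNF chromatin remodelers. Erbb3 mRNA, at 1368, 1275 and 1178 counts in WT kidney and 1370, 1211 and 961 in KO, overlapped between the genotypes. Esyt1, at 221, 283 and 245 against 301, 211 and 159, overlapped as well. Ikzf4 had the highest kidney mRNA value of all flanking genes, 0.96 (SE 0.67), but from 8, 18 and 13 counts in WT and 12, 37 and 17 in KO, which overlapped after scaling. Smarcc2 had 823, 780 and 922 counts in WT kidney and 784, 512 and 514 in KO, a log2 fold change of -0.37 (SE 0.15) with KO below WT and an adjusted p of 0.294 by edgeR. Its kidney footprints went the other way at 0.25 (SE 0.11), with KO above WT and an adjusted p of 0.158. Of the 6 Smarcc2 transcripts tested, 2 were above 0 and 4 below in kidney RNA-seq, and all 6 were above 0 in kidney Ribo-seq. In brain the Smarcc2 values overlapped in both assays.

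By distance, the median log2 fold change in kidney RNA-seq was 0.12 for the 8 genes under 100 kb, 0.19 for the 15 tested at 100 to 250 kb and 0.16 for the 14 tested beyond. In brain RNA-seq the medians were 0.13, 0.15 and 0.04. The kidney median under 100 kb was -0.04 with library size alone and -0.01 without WT replicate 3, so its sign was not stable. Across genes, Spearman's rho between gap and fold change was 0.01 over 37 genes in kidney and -0.16 over 39 in brain RNA-seq. For the size of the change regardless of sign, it was -0.12 and 0.00. Genes are not independent replicates, and neighboring genes share libraries, so these are descriptions only.

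In kidney Ribo-seq 35 flanking genes were tested and 2 passed the adjusted threshold, both higher in KO: Suox and Dgka. All transcripts gave 7.76% called. Of 13406 coding genes tested, 799 (5.96%) were called higher and 509 lower in KO, so 2 of 35 is not above the background. By the unadjusted p of 0.05, 6 were higher and 5 lower, read against 28.8% of coding genes. In brain Ribo-seq 39 genes were tested and 0 passed with edgeR or DESeq2, where 0.0345% of all transcripts passed with edgeR. By the unadjusted p, 2 were higher and 3 lower in brain, read against 14.5%.

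Suox, sulfite oxidase of the mitochondrial intermembrane space, lies 120.6 kb from Rpl41 at chr10:128669894-128674073. Its kidney footprint counts were 841, 457 and 412 in WT and 400, 1725 and 1518 in KO, which follow the uneven depth of the libraries. Scaled, they were 30.7, 30.7 and 30.3 CPM in WT and 39.5, 40.2 and 39.2 CPM in KO. The groups did not overlap, with an SD of 0.260 CPM in WT and 0.517 CPM in KO. The log2 fold change was 0.38 (SE 0.10), with an adjusted p of 0.0350 by edgeR. The mRNA did not show this difference, at 777, 681 and 1082 counts in WT kidney and 968, 655 and 578 in KO, a log2 fold change of -0.10 (SE 0.21), which was 0.15 without WT replicate 3. The change in translation efficiency was 0.46 (SE 0.23), with an adjusted p of 0.294.

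In brain, Suox footprints were 88, 36 and 75 counts in WT and 84, 172 and 109 in KO. Scaled, they were 3.81 ± 0.411 CPM (SD, n = 3) in WT and 4.90 ± 0.177 CPM in KO, without overlap. The log2 fold change of 0.37 (SE 0.15) was of the same size as in kidney, but its adjusted p was 0.340 by edgeR. The interaction test of the tissues gave a difference of 0.00 (SE 0.19). Brain Suox mRNA gave 0.23 (SE 0.16), with overlapping groups, and 0.14 without KO replicate 3.

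Dgka, diacylglycerol kinase alpha, which turns the lipid messenger diacylglycerol into phosphatidic acid, lies 170.8 kb from Rpl41 at chr10:128720134-128744855. It had 134, 73 and 74 footprint counts in WT kidney and 73, 357 and 276 in KO. Scaled, these were 5.08 ± 0.309 CPM (SD, n = 3) and 7.56 ± 0.668 CPM, with KO above WT. The log2 fold change was 0.59 (SE 0.13), with an adjusted p of 0.0181 by edgeR, the lowest of the flanking genes. Unlike for Suox, the kidney mRNA went with the footprints: 349, 445 and 263 counts in WT and 489, 541 and 388 in KO gave 0.58 (SE 0.23), with KO above WT and an adjusted p of 0.292. The change in translation efficiency was 0.00 (SE 0.26). In brain the footprints gave 0.35 (SE 0.18), with KO above WT and an adjusted p of 0.442, while the mRNA gave 0.09 (SE 0.19) with overlap, and -0.001 to 0.254 with 1 library left out.

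Both calls depended on the libraries. Leaving out each kidney Ribo-seq library in turn gave an adjusted p of 0.0433 to 0.135 for Suox and 0.0157 to 0.116 for Dgka, while their fold changes stayed at 0.36 to 0.39 and 0.50 to 0.64. Suox kept its call only without WT replicate 3, and Dgka only without WT replicate 3 or KO replicate 1. Scaling by library size alone left an adjusted p of 0.0888 and 0.0512. Summed pancreas markers were 10.7 to 84.2 CPM in WT and 3.65 to 7.14 CPM in KO kidney Ribo-seq, with 3 of 4 markers tested and all 3 lower in KO. Summed kidney markers were 4444 to 5387 CPM in WT and 5662 to 7535 CPM in KO, with 2 of 7 called, and summed leukocyte markers 8.15 to 16.1 CPM and 14.3 to 16.1 CPM, with 1 of 4 called. Their part in these results was not tested. Among the 153 transcripts of flanking genes tested, 4 were called, a smaller share than the 7.76% of all transcripts, namely 2 of 3 Dgka transcripts with near-equal counts, the single Suox transcript and 1 of 5 transcripts of Cnpy2.

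**Figure D4:**
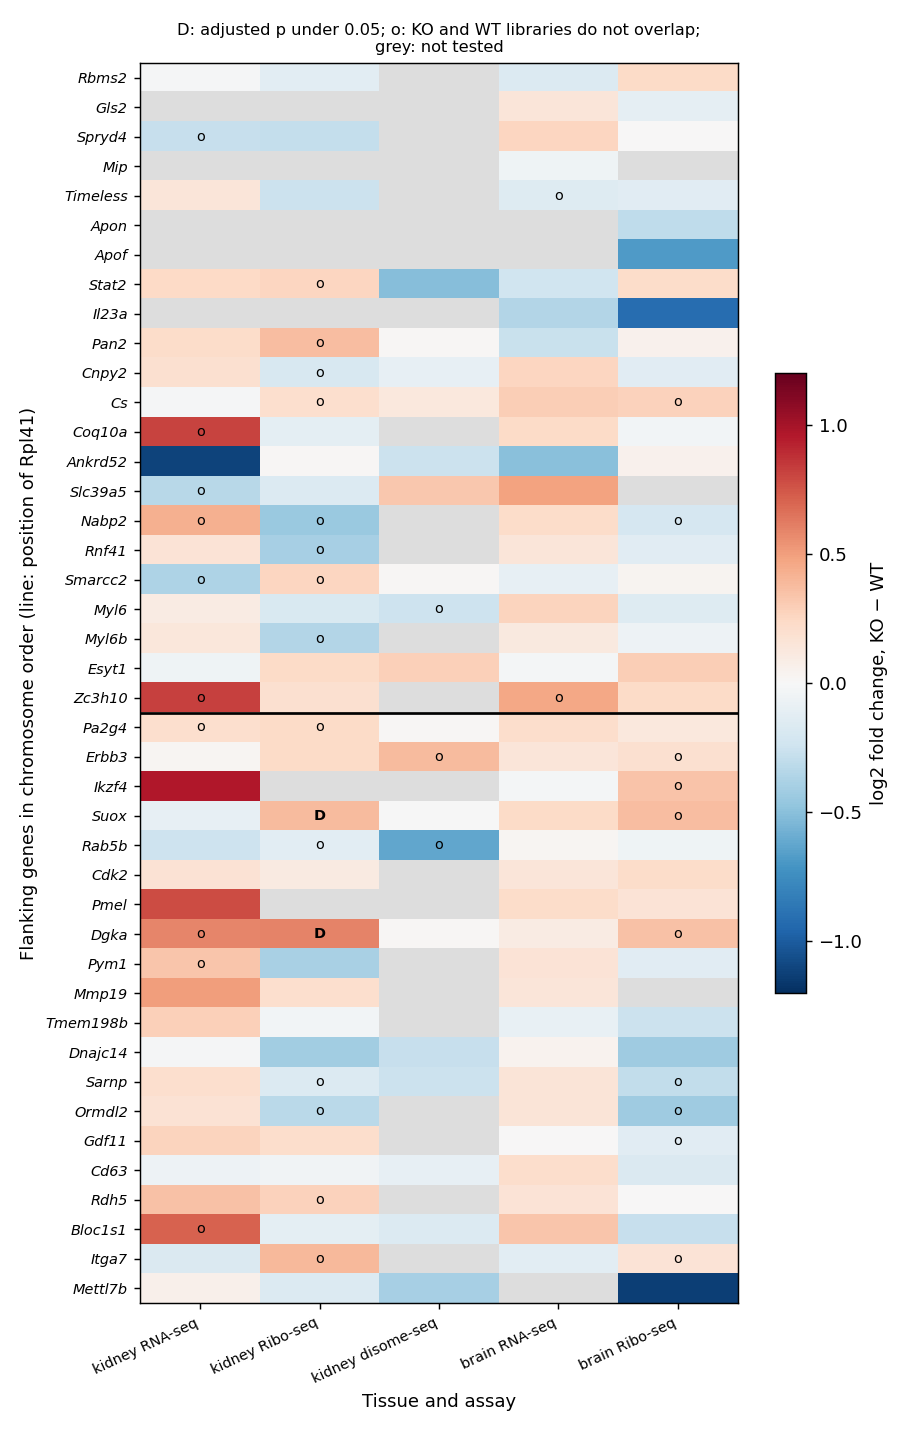
Log2 fold change (KO over WT) of the 42 flanking genes in chromosome order (rows) for the 5 comparisons (columns), with the position of Rpl41 as a line. D marks an adjusted p under 0.05, o marks KO and WT libraries that do not overlap, and grey cells were not tested; the 2 marked D are Suox and Dgka in kidney Ribo-seq.

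Genes were also counted by whether their scaled KO libraries all lay on 1 side of WT. In kidney Ribo-seq 9 flanking genes had KO above WT and 7 KO below, 16 of 35 tested, read against 32.9% of coding genes. In kidney RNA-seq there were 10 of 37, read against 20.8%, and without KO replicate 1 there were 19 of 37, read against 49.9%. In brain RNA-seq there were 2 of 39, Zc3h10 above and Timeless, a replication fork protein, below, read against 13.3%. In brain Ribo-seq there were 10 of 39, read against 19.7%.

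The genes with the largest kidney mRNA differences were spread over the window. Coq10a, a coenzyme Q binding protein of mitochondria 179.1 kb away, had 611, 701 and 408 counts in WT and 1009, 954 and 755 in KO. Its log2 fold change was 0.81 (SE 0.20), with an unadjusted p of 0.00412, the lowest of the flanking genes, and an adjusted p of 0.292 by edgeR. Its kidney footprints did not follow, at -0.12 (SE 0.16). Bloc1s1, a subunit of a complex in lysosome and melanosome biogenesis 368.6 kb away, had 1818, 2035 and 1285 counts in WT and 2287, 2593 and 2528 in KO, a log2 fold change of 0.70 (SE 0.22). Its exons overlap those of Rdh5 on the same strand over 66.5% of its length, so reads of both genes can be shared. Without KO replicate 1, Coq10a gave 0.87 (adjusted p = 0.0313), Bloc1s1 0.88 (adjusted p = 0.0203) and Zc3h10 0.89 (adjusted p = 0.0352) by edgeR, in the fit that called 17.0% of all transcripts.

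Lower values were seen for Slc39a5, at -0.33 (SE 0.15) with KO below WT, and Spryd4, a SPRY domain protein, at -0.27 (SE 0.19) with KO below WT, with adjusted p of 0.304 and 0.428 by edgeR. Ankrd52, an ankyrin repeat subunit of a protein phosphatase, had the lowest kidney value, chosen here after its values were seen. Its counts were 147, 97 and 262 in WT and 129, 46 and 51 in KO, a log2 fold change of -1.11 (SE 0.46) with overlapping groups. In brain it had 816, 845 and 1564 counts in WT and 1496, 474 and 502 in KO, and WT replicate 3 and KO replicate 1 were the high libraries. The brain log2 fold change was -0.51 (SE 0.30). Without WT replicate 3 the value was -0.61 in kidney and -0.18 in brain, and without KO replicate 1 it was -0.86 in brain.

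Some genes had mRNA and footprints on opposite sides of WT in kidney. Nabp2, a single-stranded DNA binding protein of the damage response, had 760, 867 and 739 mRNA counts in WT and 1068, 937 and 876 in KO, a log2 fold change of 0.43 (SE 0.14) with KO above WT. Its footprints, at 191, 84 and 107 counts in WT and 45, 216 and 203 in KO, gave -0.45 (SE 0.14) with KO below WT. Of the 9 Nabp2 transcripts tested, 3 were above 0 and 6 below in kidney RNA-seq. All 9 were below 0 in kidney Ribo-seq. For the transcript used, the change in translation efficiency was -0.90 (SE 0.21), with an unadjusted p of 0.000940 and an adjusted p of 0.118 by edgeR. The Smarcc2 transcript used went the opposite way, at 0.61 (SE 0.19) with an adjusted p of 0.141 by edgeR. No flanking gene passed in the efficiency test of either tissue with edgeR, nor did any transcript (0.0%). By the unadjusted p of 0.05 there were 8 of 39 genes in kidney, read against 17.7% of coding genes, and 1 of 42 in brain, read against 5.28%. DESeq2 called Nabp2 (-0.97, adjusted p = 0.00827) and Smarcc2 (0.53, adjusted p = 0.0463) in kidney. It called 4.56% of all transcripts there. Without KO replicate 1 of kidney RNA-seq, edgeR called 5 flanking genes, with 17.8% of all transcripts called.

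In Ribo-seq several genes stood on the same side of WT in both tissues. Among 33 genes tested in both, KO lay above WT in each for Cs, Suox, Dgka and Itga7, a laminin-binding integrin, and below WT in each for Nabp2, Sarnp, an mRNA export factor, and Ormdl2, a regulator of sphingolipid synthesis. These 4 and 3 genes of 33 are read against 4.12% of coding genes above and 3.59% below WT in both tissues. Cs gave 0.20 (SE 0.11) in kidney and 0.27 (SE 0.10) in brain, and Itga7 0.39 (SE 0.15) and 0.17 (SE 0.13). Sarnp gave -0.16 (SE 0.10) and -0.29 (SE 0.13), and Ormdl2 -0.32 (SE 0.12) and -0.43 (SE 0.20). In brain, Itga7 was 0.10 without WT replicate 2 and Ormdl2 -0.27 without KO replicate 2. None of Cs, Itga7, Sarnp and Ormdl2 passed the adjusted threshold in either tissue. Past an unadjusted p of 0.05 in both tissues with the same sign were 2 of 33, Suox and Dnajc14, read against 6.86% of coding genes. Dnajc14, a J-domain chaperone named here after its values were seen, was at -0.41 (SE 0.15) and -0.42 (SE 0.16). Dnajc14 exons on the opposite strand overlap 70.8% of the Ormdl2 transcript, and without strand their reads cannot be told apart.

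Among genes whose kidney Ribo-seq groups did not overlap, the lowest footprint values after Nabp2 were those of Rnf41, a ubiquitin ligase that acts on the Erbb3 receptor, at -0.40 (SE 0.17) with an adjusted p of 0.158, and Myl6b at -0.36 (SE 0.11) with an adjusted p of 0.0631. In brain, Ikzf4 had 13, 5 and 16 footprint counts in WT and 13, 30 and 18 in KO, a log2 fold change of 0.34 (SE 0.30) with KO above WT. Mettl7b in brain gave -1.13 (SE 0.45) from 37, 24 and 19 counts in WT and 24, 17 and 11 in KO, with overlapping groups after scaling. These low counts leave wide errors, and the adjusted p was 0.672 and 0.340 by edgeR. Summed blood markers were 636 to 1841 CPM in WT and 346 to 443 CPM in KO brain Ribo-seq. Summed kidney markers there were 2.49 to 7.55 CPM in WT and 1.82 to 10.8 CPM in KO. Pituitary markers summed to 0.949 to 752.8 CPM in WT and 0.867 to 18.8 CPM in KO. Pancreas markers summed to 0.763 to 31.3 CPM in WT and 0.562 to 1.65 CPM in KO. The part of any of these was not tested.

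The interaction tests of kidney against brain called 0 flanking genes with edgeR or DESeq2, where edgeR called 0.00108% of transcripts in RNA-seq and 0.0767% in Ribo-seq. By the unadjusted p of 0.05 there were 2 of 39 in RNA-seq, read against 7.93% of coding genes, and 1 of 41 in Ribo-seq, read against 9.39%.

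By distance, footprint medians were 0.22 under 100 kb, -0.06 at 100 to 250 kb and -0.12 beyond in kidney, and 0.16, 0.01 and -0.17 in brain, beside -0.02 and -0.03 over all coding genes. Spearman's rho between gap and fold change was -0.05 over 35 genes in kidney and -0.44 over 39 genes in brain. Protein length went along with the footprint changes among the same genes, with rho of 0.63 between fold change and residues in kidney and 0.60 in brain. In RNA-seq the corresponding rho was -0.17 in kidney and -0.46 in brain. Over the whole transcriptome, the study reports higher footprint levels and modestly lower mRNA for transcripts of the longest proteins in both tissues. A change with length is thus reported beyond the flanking genes, but for the longest proteins and not as a rho. The rho over all coding genes was not computed, so how the values above compare with it was not tested. Gap and protein length had a rho of -0.19 in both Ribo-seq comparisons, and the part of length in the distance medians was not tested.

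**Figure D5:**
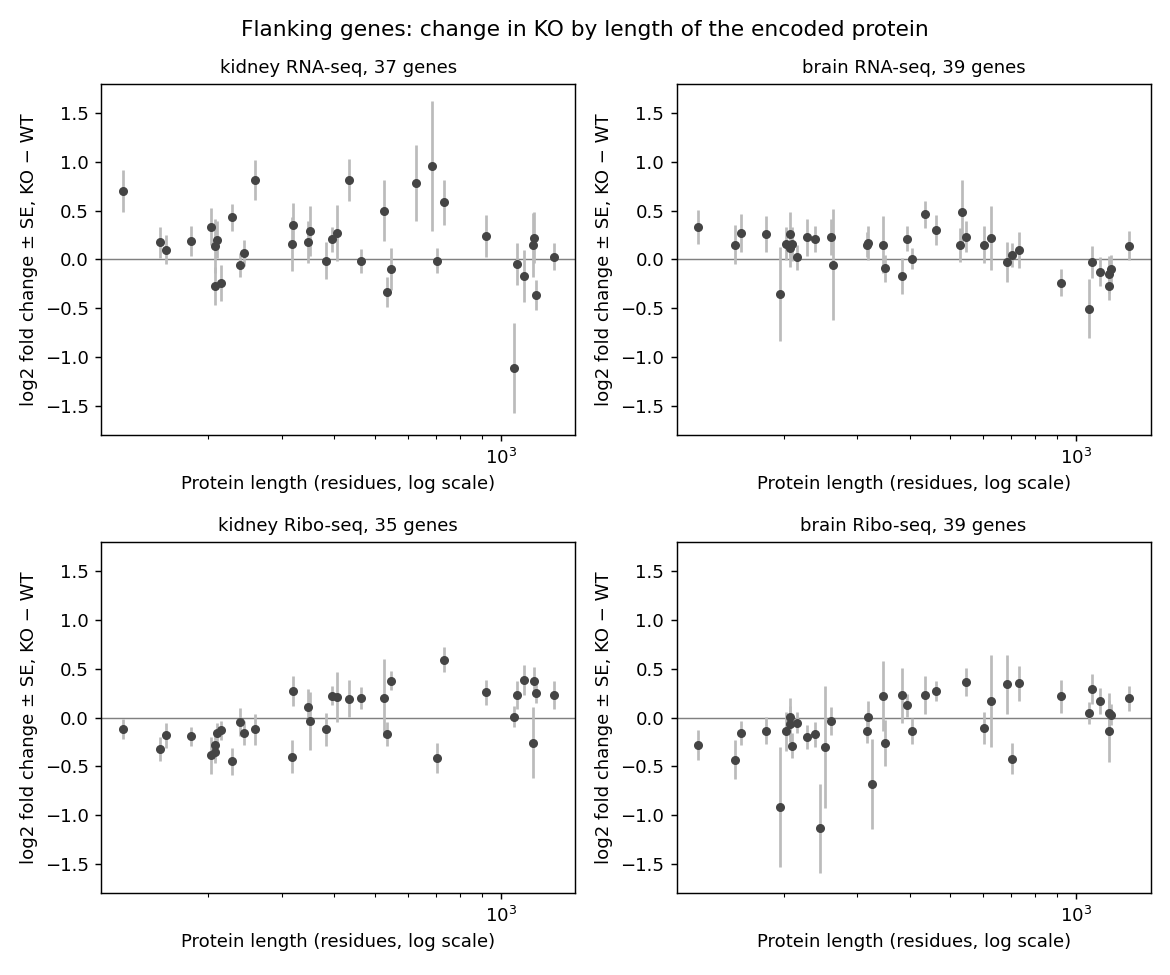
Log2 fold change (KO over WT, ± SE) of the flanking genes tested against the length of their protein in residues (log scale), for RNA-seq and Ribo-seq of both tissues. Footprint changes are more often above 0 for longer proteins (rho 0.63 in kidney, 0.60 in brain), while rho in RNA-seq is negative (-0.17 and -0.46).

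Disome-seq had the fewest counts. Of the 42 genes, 19 were tested, 0 passed with edgeR or DESeq2 where 0.201% of transcripts did with edgeR, and 1 was past an unadjusted p of 0.05 where 11.2% of coding genes were. KO and WT did not overlap for 3 of 19, read against 17.2%. Rab5b, a small GTPase of early endosomes, had 24, 37 and 14 disome counts in WT and 17, 10 and 8 in KO, a log2 fold change of -0.62 (SE 0.32). Erbb3 had 45, 43 and 18 in WT and 36, 45 and 18 in KO, a log2 fold change of 0.38 (SE 0.24). Myl6, at 356, 335 and 164 in WT and 243, 169 and 116 in KO, gave -0.25 (SE 0.16). Mettl7b, the gene past the unadjusted threshold, gave -0.40 (SE 0.19). Without KO replicate 2, Erbb3 was 0.16 and Myl6 -0.16, and without WT replicate 3, Myl6 was -0.14 and Mettl7b -0.26. Suox and Dgka, called in Ribo-seq, gave 0.00 (SE 0.20) and 0.02 (SE 0.27), and both changed sign with 1 library left out. Medians by distance were 0.02 for 5 genes under 100 kb, 0.01 for 8 at 100 to 250 kb and -0.27 for 6 beyond. Summed blood markers were 287.7 to 321.5 CPM in WT and 159.5 to 231.1 CPM in KO disome-seq, with 4 of 5 markers below WT. Their part was not tested.

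Grouped by role, no list held a called gene in RNA-seq, and the lists were described by their medians only. In brain RNA-seq all 8 tested metabolic genes (among them Cs, Coq10a and Suox) had values above 0, with a median of 0.20, where 27 of all 39 flanking genes tested were above 0. In kidney RNA-seq 5 of the 8 metabolic genes tested there were above 0, with or without KO replicate 1. The tested genes differ, since Gls2 was tested only in brain RNA-seq and Mettl7b only in kidney RNA-seq. The 4 genes of cell cycle and DNA (Cdk2, Timeless, Nabp2 and Pa2g4) were all above 0 in kidney RNA-seq, with or without KO replicate 1, with a median of 0.19, and 2 of 4 were above 0 in kidney Ribo-seq. Over all coding genes, 8482 of 13839 were above 0 in kidney RNA-seq and 10726 of 15680 in brain RNA-seq. Without KO replicate 1, the kidney number was 8676 of 14066.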

How the data were processed

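Counts per transcript were deposited by the authors as 1 mouse table. Per the study's methods, reads were trimmed with cutadapt, rRNA reads were taken out and the rest aligned with STAR to GRCm38.p6 (mm10), multimapping reads allowed. The submitters' processing notes name featureCounts as counter, and its strand setting and counted feature for mouse are not given in the sources used here. Transcripts that share exons can share reads. From the deposited counts, 141374 of 142604 transcripts matched GENCODE M21. Transcripts passing filterByExpr were tested with edgeR 4.0.16 (TMM scaling, quasi-likelihood test, Benjamini-Hochberg over all transcripts) in each tissue and assay with 3 KO and 3 WT libraries, and by assay or tissue interactions with genotype. DESeq2 1.42.0 was an alternative, and the tests were checked on simulated data. Members, lists and tests were chosen with earlier results of these data known. Genes named are the 4 nearest on each side, those called, the 3 largest non-overlapping changes each way per comparison and the 3 highest in each tissue. Same-numbered KO and WT libraries did not consistently deviate together (r of -0.342 to 0.320), so no pairing was used. In disome-seq these r were 0.031 to 0.135, against -0.102 to 0.038 for other pairs. There the replicate block called 252 transcripts against 70 without it. Same-numbered RNA-seq and Ribo-seq libraries had r of 0.076 to 0.239 in kidney and 0.013 to 0.339 in brain, not all over 0.1, and the efficiency tests treat them as separate. Alternatives were leaving out each library, library size alone, other count filters, counts summed per gene, the most counted transcript and a replicate block. The 44 human samples were not used here.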

Additional observations from a re-analysis of the deposited data

How the results depend on the processing

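Genes called in brain RNA-seq, brain Ribo-seq, disome-seq, brain translation efficiency and both tissue interactions stayed at 0 under every alternative run. In kidney Ribo-seq, library size alone left 0 calls, the replicate block 1 (Dgka, with Suox at an adjusted p of 0.0692), and leaving out 1 library 0 to 2. Leaving out 1 library gave 0 to 3 calls in kidney RNA-seq and 0 to 5 in kidney translation efficiency, both highest without KO replicate 1 of kidney RNA-seq, and DESeq2 called 2 in the latter. The median under 100 kb was -0.038 in kidney RNA-seq and 0.147 in kidney Ribo-seq with library size alone, and 0.150 in kidney Ribo-seq and 0.234 in disome-seq with counts summed per gene. With 1 library left out it was -0.014 to 0.197 (kidney RNA-seq), 0.159 to 0.269 (kidney Ribo-seq), -0.043 to 0.158 (disome-seq), 0.068 to 0.228 (brain RNA-seq) and 0.112 to 0.172 (brain Ribo-seq). Values near 0 turned: Dgka in disome-seq was -0.002 with summed counts, -0.059 with library size alone and -0.000 for its most counted transcript (-0.073 to 0.097 with 1 library left out), and Suox 0.016 with summed counts and 0.003 with the block (-0.085 to 0.111). The Suox tissue difference was -0.038 with library size alone (-0.084 to 0.076), Suox kidney mRNA -0.251 to 0.146 and Dgka brain mRNA -0.001 to 0.254. The cause was not tested. Over all transcripts, DESeq2 called 465 against 7 with edgeR in kidney RNA-seq, 3497 against 5838 in kidney Ribo-seq and 388 against 28 in brain Ribo-seq, and leave-one-out fits called 285 to 5843 in kidney Ribo-seq. The block changed no other call of a flanking gene, translation efficiency included, and same-numbered libraries share only a number. Low counts limit disome-seq and the lymphocyte, lens and apolipoprotein genes.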
